A study of Rattus norvegicus with 20 samples.

Results

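The channels described here are the transducers with which nociceptors, the pain-sensing neurons, detect heat, acid and ATP: Trpv1, the acid-sensing channel genes Asic1, Asic2 and Asic3, and the ATP-gated P2X receptor genes P2rx2, P2rx3 and P2rx4. All probe sets that the array's probe table assigns to 1 of these 7 genes alone were taken, older names included, which gave 13 probe sets among 8740 tested and 7 genes among 4736 named. P2rx2 has 6 of them, Asic2 has 2, and the other genes have 1 each.

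Total RNA came from rat dorsal root ganglia of the operated side, where sensory neurons have their cell bodies, and each of 20 samples was read on 1 Affymetrix array. Chronic constriction injury (CCI), in which the sciatic nerve is loosely tied, gave 3 samples at 14 days after surgery and 3 at 21 days. The Seltzer model, which the labels describe as surgery that transects the sciatic nerve, gave 2 samples at 14 days, 3 at 21 days and 2 at 50 days. Sham operation gave 2, 3 and 2 samples at the same 3 days as the Seltzer model. The labels give no strain, sex or age, do not say which ganglia were taken or whether animals were pooled, and do not state whether replicates came from different animals, so p-values measure a spread between samples that may be technical. The series sets both nerve injury models of neuropathic pain against sham surgery.

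TRPV1 is a cation channel opened by noxious heat, protons and capsaicin. Acid-sensing channels are sodium channels opened by protons, built as trimers of ASIC subunits, and ASIC3 is the subunit known best from sensory neurons. P2X receptors are cation channels opened by extracellular ATP and are likewise trimers. P2X3 is found mainly in small nociceptors with few neuropeptides and assembles with P2X2, whereas P2X4 is known from microglia and macrophages.

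Values are the deposited intensities on a linear scale, which can lie below 0, and they are not comparable between probe sets. With 2 or 3 arrays a group, precision is limited by their number. A signal was called above background where it exceeded a level read from the array's own negative values, namely the 95th percentile of their absolute size. That level was highest on Seltzer 50-day replicates 1 and 2 (765.3 and 596.5), next on replicate 1 of CCI at 21 days (498.7), and 169.4 to 324.6 elsewhere. The GAPDH control's 3' signal over its mid-transcript signal, which grows with degraded or incompletely copied RNA, was 8.89 and 5.10 on those 50-day Seltzer arrays, 2.84 and 2.85 on the 50-day sham arrays, and 1.00 to 2.04 on the 16 arrays at 14 and 21 days. Of 7 neuron markers measured, 6 (Uchl1, Nefl, Nefm, Prph, Snap25 and Elavl4) were above background on all 20 arrays. In these whole-ganglion samples, fewer cells of a type and less RNA per cell cannot be told apart.

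P2rx3, Asic3 and 2 of the 6 P2rx2 probe sets gave a readable signal, and the other members mostly did not. P2rx3 and the P2rx2 probe set AF020756_s_at were above background on 18 of the 18 arrays other than the 50-day Seltzer ones, Asic3 on 17, and the P2rx2 probe set AF020758_at on 10. Trpv1 was above background on 7 of them and Asic1 on 1. Both Asic2 probe sets, P2rx4 and the other 4 P2rx2 probe sets were above it on none. Statements about these 7 probe sets therefore concern the array signal and not a measured level of the mRNA.

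At 14 and 21 days, none of the 13 probe sets passed the threshold in either injury model (limma, adjusted p under 0.05 over 8740 probe sets). As means over both days, 2.29% of all probe sets passed for CCI against sham and 0.297% for Seltzer against sham, and none of the 13 had an unadjusted p under 0.05 in either. Taken day by day, 2.78% of all probe sets passed for CCI at 14 days, 0.927% for CCI at 21 days, 0.206% for Seltzer at 14 days and 0.378% for Seltzer at 21 days, again with none of the 13. The only unadjusted p-values under 0.05 were those of P2rx2 AF020758_at for CCI at 21 days and of P2rx2 AF020757_s_at, whose signal was below background on all arrays, for Seltzer at 21 days. The members' changes had a median of -0.14 for CCI and -0.0071 for Seltzer as means of both days, on the log2 scale, against 0 over all probe sets in both.

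P2rx3, the ATP receptor subunit of nociceptors, had lower intensities after both injuries at 14 days, without passing the test. At 14 days P2rx3 read 864, 891 and 912 in CCI ganglia and 1123 and 954 in Seltzer ganglia, against 1179 and 1451 in sham ganglia. All 5 injured samples lay below both sham samples. The CCI change at 14 days was -0.55 on the log2 scale (SE 0.27, adjusted p = 0.511), a ratio of geometric means of 0.680, and the Seltzer change was -0.33 (SE 0.29, adjusted p = 1), a ratio of 0.791. At 21 days P2rx3 read 829, 1006 and 1042 in CCI ganglia and 1278, 1009 and 1093 in Seltzer ganglia, against 1026, 1767 and 713 in sham ganglia. There the sham samples spanned both the lowest and the highest value, so neither injury group stood apart from them. As a mean of both days the CCI change was -0.37 (95% confidence interval -0.76 to 0.017, adjusted p = 0.503), and the Seltzer change was -0.15 (-0.55 to 0.26, adjusted p = 1). Summed skeletal muscle markers (10 measured) at 14 days were 11392 to 12740 in CCI and 7477 to 7591 in Seltzer ganglia, against 5295 to 6188 in sham ganglia, with none at or below 0 throughout a group. Of these 10 markers 1 (Acta1) passed for CCI at 14 days and 0 for Seltzer, and the sums were not tested. Summed neuron markers (7 measured, none at or below 0 throughout a group) were 18975 to 23869 in CCI and 16433 to 19508 in Seltzer ganglia, against 13318 to 22461 in sham ganglia. Their part in the P2rx3 values was not tested.

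**Figure D1:**
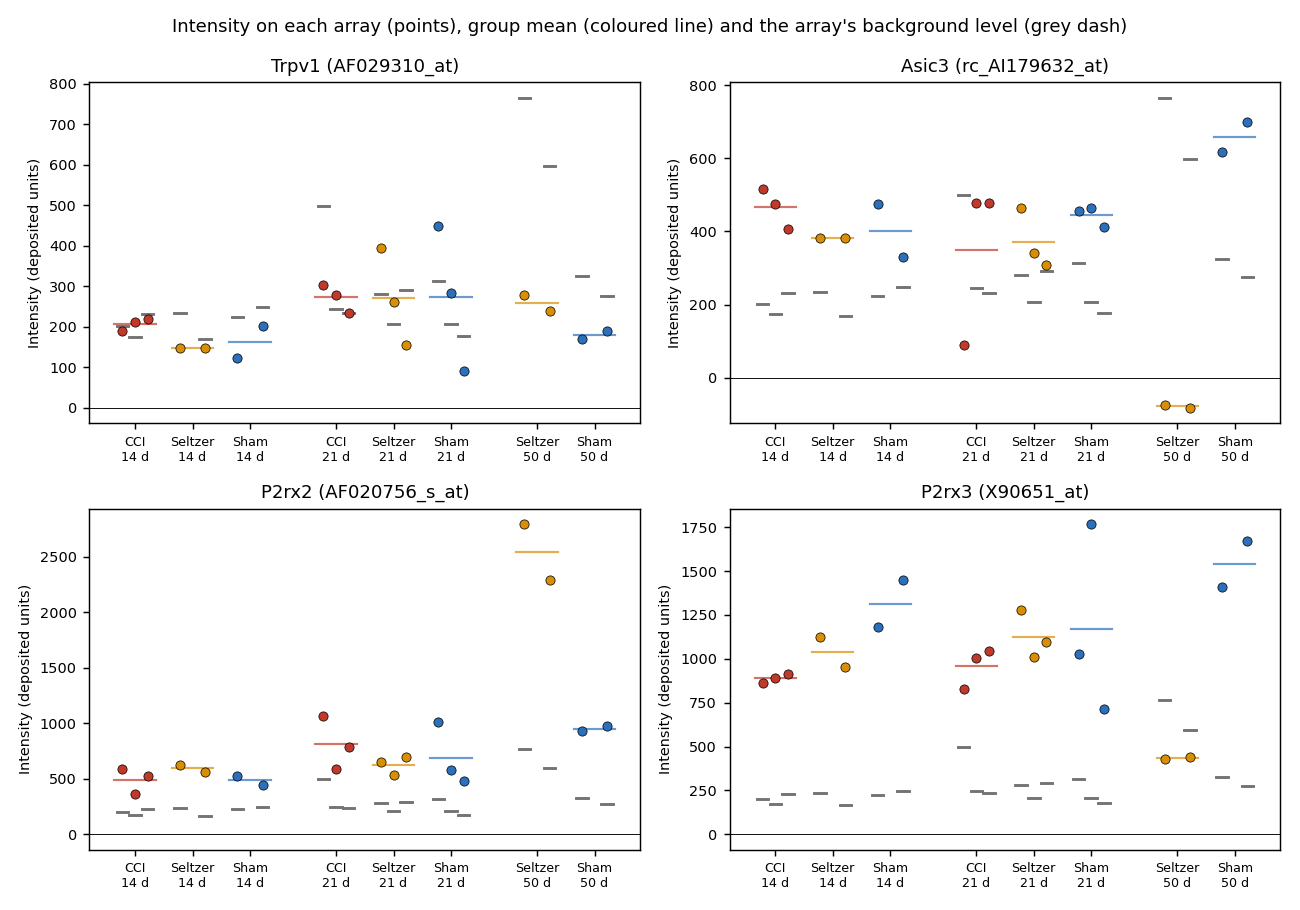
Deposited intensity (y axis) of Trpv1, Asic3, P2rx2 (AF020756_s_at) and P2rx3 on each of 20 arrays, by surgery and day (x axis), with points for arrays, coloured lines for group means and grey dashes for each array's background level. At 50 days P2rx3 read 428 and 439 and Asic3 read -74 and -82 on the Seltzer arrays, below backgrounds of 765.3 and 596.5, while P2rx2 read 2792 and 2286, above them.

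The P2rx2 probe set AF020756_s_at, for the subunit that joins P2X3 in heteromers, was at similar intensity in injured and sham ganglia at 14 and 21 days. At 14 days it read 591, 360 and 528 in CCI and 627 and 563 in Seltzer ganglia, against 524 and 445 in sham ganglia. At 21 days it read 1064, 587 and 788 in CCI and 649, 534 and 700 in Seltzer ganglia, against 1015, 577 and 478 in sham ganglia. The CCI and sham samples overlapped on both days and the Seltzer and sham samples at 21 days, while at 14 days both Seltzer samples lay above both sham samples. The mean change was 0.13 for CCI (95% confidence interval -0.31 to 0.57, adjusted p = 0.934) and 0.11 for Seltzer (-0.35 to 0.57, adjusted p = 1).

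The second P2rx2 probe set with signal, AF020758_at, spread more widely within groups. At 21 days it read 27, 92 and 492 in CCI ganglia and 163, 337 and 482 in Seltzer ganglia, against 659, 405 and 360 in sham ganglia. In CCI ganglia 2 of 3 samples (27 and 92) lay below every sham sample and below the background of their arrays (499 and 245). The third sample (492) did neither. Its change at 21 days after CCI was -1.84 (SE 0.74, adjusted p = 0.348). Without CCI 21-day replicate 3 that change was -2.80 and passed (adjusted p = 0.0486). That fit leaves out the only CCI value of this day above background, so it sets values below background against sham. At 14 days the probe set read 216, 154 and 491 in CCI ganglia and 172 and 396 in Seltzer ganglia, against 174 and 223 in sham ganglia, so the groups overlapped. The mean CCI change over both days was -0.74 (SE 0.55, adjusted p = 0.746).

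The other 4 P2rx2 probe sets lay near 0. U14414_at ran from -40 to 161 over the 20 arrays, AF020758_g_at from -40.5 to 429, AF020757_s_at from -278 to 16 and AF028603_s_at from -189 to 77. The last 3 of these were below 0 on 15, 15 and 16 arrays. The 6 probe sets thus disagreed on whether P2rx2 mRNA was detected, and AF020758_at and AF020758_g_at did so although they carry the same sequence accession in their names. The extremes of AF020758_g_at (429) and AF020757_s_at (-278) both came from CCI 21-day replicate 1, the array with a background level of 498.7.

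**Figure D2:**
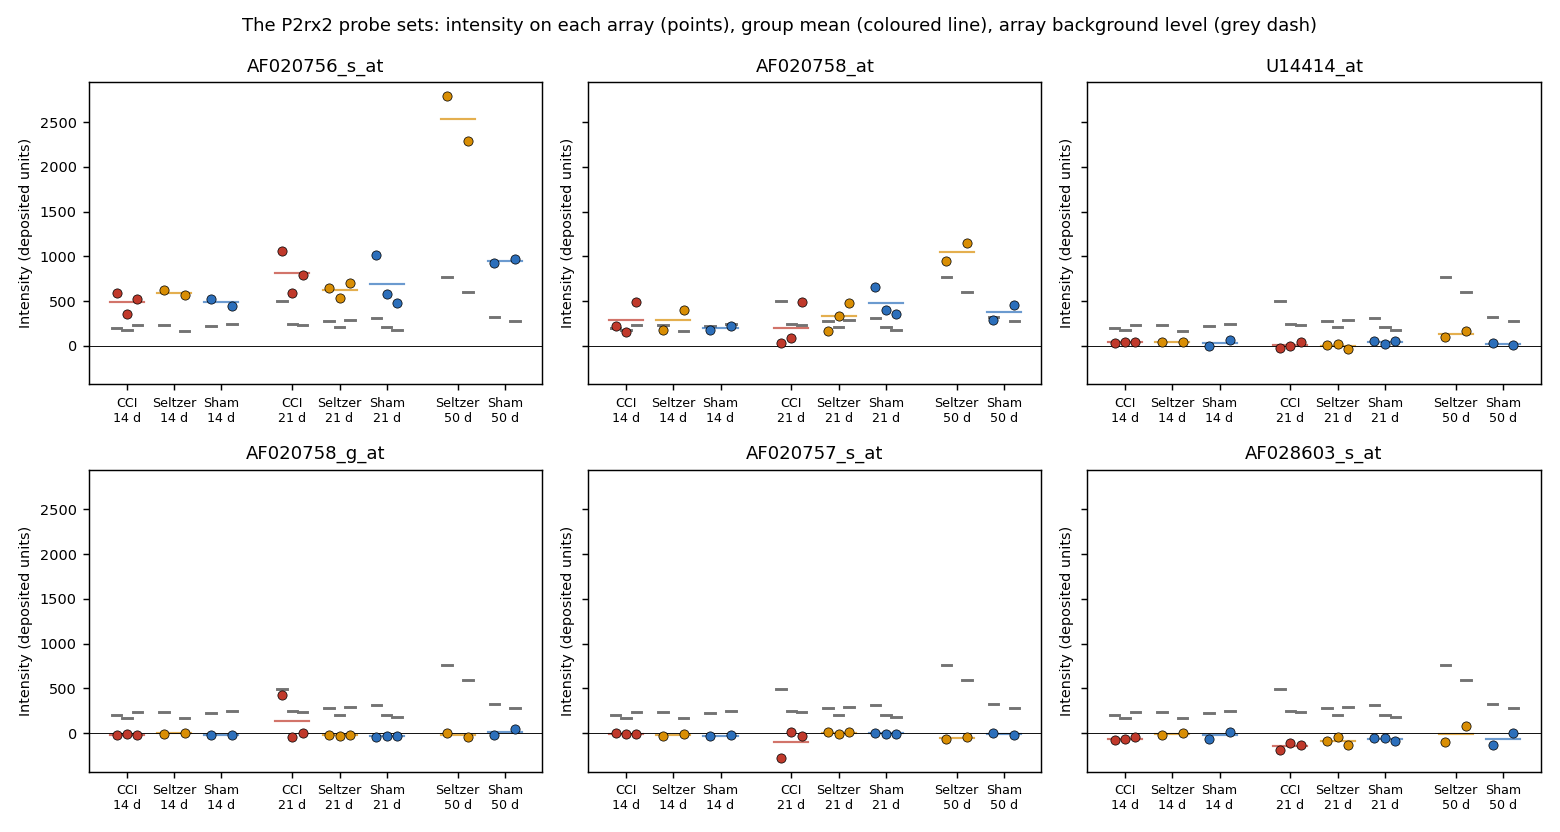
Deposited intensity (y axis, shared scale) of the 6 P2rx2 probe sets on 20 arrays by surgery and day (x axis), with points for arrays, coloured lines for group means and grey dashes for array background levels. AF020756_s_at lay above background throughout, AF020758_at on 12 of 20 arrays, and the other 4 on none.

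Asic3, the acid-sensing subunit of sensory neurons, kept overlapping intensities in injured and sham ganglia at both of these days. At 14 days it read 516, 474 and 407 in CCI and 382 and 383 in Seltzer ganglia, against 476 and 329 in sham ganglia. At 21 days it read 90, 477 and 478 in CCI and 463, 340 and 309 in Seltzer ganglia, against 457, 465 and 412 in sham ganglia. The value of 90 belongs to the CCI array with the high background, and the other 2 CCI arrays lay above all 3 sham arrays. The mean CCI change was -0.21 (95% confidence interval -0.93 to 0.51, adjusted p = 0.937) and turned to 0.16 (adjusted p = 0.737) without that array. The mean Seltzer change was -0.16 (-0.92 to 0.60, adjusted p = 1).

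Trpv1, the heat and capsaicin channel, was above background on 1 to 2 arrays each of CCI at 14 and 21 days and of Seltzer and sham at 21 days, and on none of the other 4 groups. It read 190, 211 and 220 in CCI and 148 and 147 in Seltzer ganglia at 14 days, against 124 and 201 in sham ganglia. At 21 days it read 304, 279 and 235 in CCI and 395, 261 and 155 in Seltzer ganglia, against 450, 283 and 91 in sham ganglia. The sham samples at 21 days spread over a wider range than any other group of Trpv1 values. The mean change was 0.29 for CCI (95% confidence interval -0.41 to 0.99, adjusted p = 0.851) and 0.02 for Seltzer (-0.71 to 0.75, adjusted p = 1).

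Asic1, Asic2 and P2rx4 gave low signals. Asic1 read 105, 175 and 192 in CCI and 141 and 71 in Seltzer ganglia at 14 days, against 244 and 244 in sham ganglia, of which 1 was above background. All 5 injured samples lay below both sham samples at that day, again without a count over all probe sets. The values overlapped at 21 days, with 128, 156 and 112 in CCI and 92, 138 and 91 in Seltzer ganglia, against 53, 190 and 90 in sham ganglia. Its mean change was -0.14 for CCI (adjusted p = 1) and -0.54 for Seltzer (adjusted p = 1). With all values below 200 set to 200, which left the 2 sham samples at 14 days as the only ones of these groups above the floor, both changes became -0.14 and passed (adjusted p = 2.27e-05 and 7.83e-05). The 2 Asic2 probe sets ran from 59 to 276 (Y14635_s_at) and from 16 to 144 (U53211_at) over all arrays, with mean CCI changes of 0.22 and -0.15. P2rx4, the subunit of microglia and macrophages, ran from 13 to 158, with a mean CCI change of 0.39 (adjusted p = 0.785). Of 9 macrophage markers 3 rose after CCI (Cd74, Ctss and Lyz2) and 2 after Seltzer (Cd74 and Ctss) as means of both days, while the P2rx4 signal stayed below background.

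**Figure D3:**
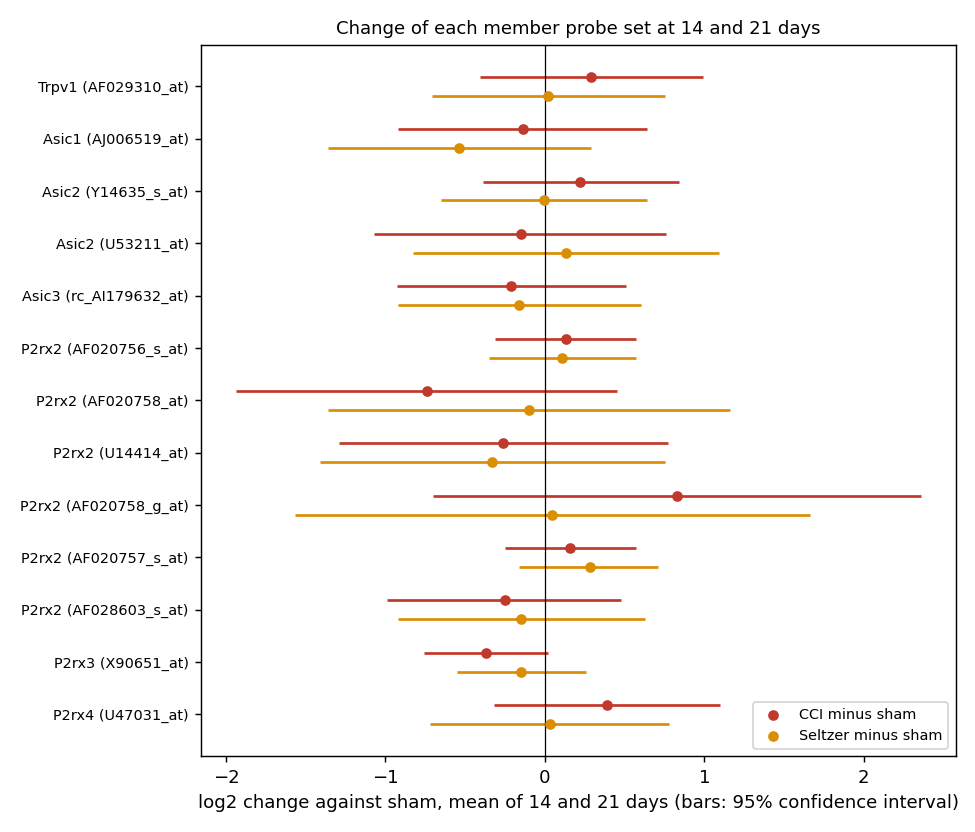
Log2 change against sham (x axis) of the 13 probe sets (y axis), as the mean of 14 and 21 days, for CCI (red) and Seltzer (orange), with bars for 95% confidence intervals from the limma fit. Every interval includes 0, and the interval nearest to excluding it is that of P2rx3 after CCI (-0.76 to 0.017).

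No member's change passed a test of the difference between the models or between 14 and 21 days. Between CCI and Seltzer as a mean of both days, 0.927% of all probe sets and none of the 13 passed (lowest adjusted p = 0.845, none with an unadjusted p under 0.05). The CCI minus Seltzer change was -0.22 for P2rx3 (95% confidence interval -0.61 to 0.16), -0.05 for Asic3 (-0.77 to 0.67) and 0.022 for P2rx2 AF020756_s_at (-0.42 to 0.46). The CCI effect at 21 days minus that at 14 days passed for 1.8% of all probe sets, and the same difference for Seltzer passed for 0.149%, with none of the 13 in either and none with an unadjusted p under 0.05.

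No gene of the related pathways passed as a mean of these days, while some non-peptidergic nociceptor genes fell after CCI and axon injury genes rose after both injuries. Of 2 other TRP channel genes measured, 15 other purine receptor and ATP-handling genes, 5 other acid sensors and partners, and 26 receptors and kinases that sensitize TRPV1, none passed for CCI or for Seltzer as a mean of both days. Median log2 changes for CCI were -0.13 for the TRP channels, 0.22 for the purine genes, 0 for the acid sensors and 0.012 for the sensitizers. Of 7 genes of non-peptidergic nociceptors, the class that carries P2X3, 3 fell after CCI (median -0.52), and 0 rose or fell after Seltzer (median -0.25). Taken by day, 3 fell after CCI at 14 days and none at 21 days, and none passed after Seltzer on either day. The 3 of the CCI mean were the sodium channels Scn11a (-1.11, adjusted p = 0.000958) and Scn10a (-1.06, adjusted p = 0.00479) and the complement regulator Cd55 (-1.29, adjusted p = 0.024). Cd55 was above background on only 6 of the 20 arrays. Scn11a read 571, 467 and 545 in CCI ganglia at 14 days, against 1737 and 1211 in sham ganglia. Of 5 peptidergic nociceptor genes none passed for CCI (median -0.38) or Seltzer (median -0.11), and of 10 genes of large myelinated neurons 1 fell after CCI and none after Seltzer. Of 10 axon injury genes 6 rose after CCI (median 1.64) and 5 after Seltzer (median 1.19). Vip, among those called after CCI, was not above background on any array. Whether the change of P2rx3 differs from that of Scn11a was not tested.

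At 50 days after the Seltzer injury 3 of the 13 probe sets passed, those of Asic3, P2rx3 and P2rx2, where 15.9% of all probe sets passed and the Seltzer arrays had the high background and GAPDH ratios given above (GAPDH ratios of 8.89 and 5.10 in Seltzer, and 2.84 and 2.85 in sham ganglia, against at most 2.04 at the other days). P2rx3 read 428 and 439 in Seltzer ganglia, against 1411 and 1673 in sham ganglia. Both Seltzer values lay below the background of their arrays. Against that background level the P2rx3 signal was at least 2.27-fold lower, a bound on array signal and not on the mRNA level. The fitted change was -1.79 (SE 0.29, adjusted p = 0.00136). Asic3 read -74 and -82 in Seltzer ganglia, against 617 and 698 in sham ganglia. Its fitted change was -5.39 (SE 0.54, adjusted p = 2.95e-05), but the sham level was not higher than the Seltzer arrays' background on average, so no fold can be given. The size of that change rests on how values near 0 are treated, being -9.36 with 1 added, -3.49 with 64 added and -1.71 with values floored at 200, each past the threshold. Downward calls made up 7.2% of all probe sets.

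In the fit as reported, the upward P2rx2 call at 50 days came from AF020756_s_at alone of the gene's 6 probe sets. With 64 added before the log2, U14414_at, never above background, passed as well (1.14, adjusted p = 0.0321). Over the 18 arrays other than the 50-day Seltzer ones, the signal of AF020756_s_at moved with array background (r = 0.791). The part of background in its 50-day values was not tested. AF020756_s_at read 2792 and 2286 in Seltzer ganglia, against 929 and 971 in sham ganglia, all above background, a ratio of 2.66 and a change of 1.40 (SE 0.33, adjusted p = 0.0134), while 8.72% of all probe sets were called higher. Leaving out Seltzer replicate 1, sham replicate 1 or sham replicate 2 ended the call (adjusted p = 0.0863, 0.0666 and 0.0645). Without Seltzer replicate 1 the P2rx2 probe set AF028603_s_at, never above background, passed in its place (2.44, adjusted p = 0.000212). AF020758_at read 949 and 1153 in Seltzer ganglia, against 287 and 459 in sham ganglia, a ratio of 2.88 and a change of 1.48 that did not pass (SE 0.90, adjusted p = 0.317). Among the rest, Asic1 read 259 and 257 in Seltzer ganglia, against 214 and 39 in sham ganglia (1.28, adjusted p = 0.165), and passed without sham replicate 1 (2.31, adjusted p = 0.0202). Trpv1 read 279 and 238 in Seltzer ganglia, against 171 and 190 in sham ganglia (0.48, adjusted p = 0.66).

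The Seltzer effect at 50 days was also set against its mean at 14 and 21 days, a comparison added after values were seen, and 2 of the 13 probe sets passed, Asic3 and P2rx3, both lower, where 9.67% of all probe sets passed. The P2rx3 call was lost without sham 50-day replicate 2 (adjusted p = 0.0563).

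Marker genes of several cell classes also differed at 50 days, where 15.9% of all probe sets passed for Seltzer against sham. Of the 7 non-peptidergic nociceptor genes 4 fell (Scn11a, Cd55, Ret and Prph) and none rose, with Cd55 at or below 0 on both Seltzer arrays. Their summed intensities were 3534 to 3911 in Seltzer and 7325 to 7347 in sham ganglia. Most of each sum was Prph, at 2178 and 1977 in Seltzer and 3993 and 4157 in sham ganglia. Prph is also 1 of the 2 neuron markers that fell. Of 5 peptidergic nociceptor genes Sst fell (-4.87, adjusted p = 0.00145) and Adcyap1 rose (1.05, adjusted p = 0.0223), with summed intensities of 3401 to 3841 in Seltzer and 6976 to 7203 in sham ganglia and Calcb at or below 0 on both Seltzer arrays. Of 10 axon injury genes 3 rose (Npy, Vip and Atf3) and none fell, with Vip not above background on any array. Of 9 macrophage markers 2 rose (Cd14 and Ctss) and none fell (summed 1976 to 2308 in Seltzer and 1414 to 1661 in sham ganglia). Fcgr2b was at or below 0 on both Seltzer arrays. Of the 7 neuron markers 2 fell and 1 rose (summed 21409 to 23242 in Seltzer and 24318 to 26468 in sham ganglia), with none at 0. Of 10 skeletal muscle markers 5 rose and none fell (summed 4243 to 5545 in Seltzer and 1203 to 1496 in sham ganglia), with Myh2 at or below 0 on the arrays of both groups and Tnnc2 on those of sham. Among the 15 purine genes Adora2a rose (1.13, adjusted p = 0.000788) and Entpd2, an ATP-degrading enzyme, fell (-4.96, adjusted p = 0.00937). Entpd2 was at or below 0 on both Seltzer arrays, so the size of its change depends on the number added before the log2. Of the 26 TRPV1 sensitizers 3 rose and 4 fell. Among the 26 sensitizers the largest called changes were those of the serotonin receptor Htr2a (3.99, adjusted p = 0.00131, not above background on any array), the protein kinase A subunit Prkacb (-1.60, adjusted p = 0.000569), the protein kinase C gene Prkce (-1.37, adjusted p = 0.011) and the neurotrophin receptor Ngfr (-1.16, adjusted p = 0.006). The part of array background, RNA quality and tissue content in the changes at 50 days was not tested.

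Asic3 and P2rx3 were the 2 members called lower at 50 days, both below background on the Seltzer arrays. Whether the 2 calls share a cause was not tested. For these 2 genes the 250 bases before their annotated starts are shown, as RefSeq gives them for the GRCr8 rat genome, 5′ to 3′ on the gene's strand. Of the 7 genes, 6 have a promoter in that table, which lists 2 starts for P2rx3. Capitals mark matches, on either strand, to the Runx core TGTGGT, the AP-1 motif TGANTCA, the cAMP response element TGACGTCA or the GC box GGGCGG, which do not overlap here and occur in 14.5%, 6.34%, 1.59% and 30.5% of 33469 such windows.
Asic3, chr4:11657368-11657617, minus strand: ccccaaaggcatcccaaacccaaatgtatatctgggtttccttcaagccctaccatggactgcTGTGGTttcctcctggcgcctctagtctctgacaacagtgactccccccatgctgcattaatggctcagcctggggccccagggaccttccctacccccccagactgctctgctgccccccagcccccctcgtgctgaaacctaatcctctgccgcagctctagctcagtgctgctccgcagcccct
P2rx3, first start, chr3:90531316-90531565, minus strand: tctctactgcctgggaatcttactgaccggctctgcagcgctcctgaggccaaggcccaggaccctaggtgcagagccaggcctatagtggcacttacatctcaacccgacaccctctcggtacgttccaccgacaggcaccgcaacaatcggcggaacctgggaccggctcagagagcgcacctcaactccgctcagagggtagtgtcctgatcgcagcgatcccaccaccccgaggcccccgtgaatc
P2rx3, second start, chr3:90529310-90529559, minus strand: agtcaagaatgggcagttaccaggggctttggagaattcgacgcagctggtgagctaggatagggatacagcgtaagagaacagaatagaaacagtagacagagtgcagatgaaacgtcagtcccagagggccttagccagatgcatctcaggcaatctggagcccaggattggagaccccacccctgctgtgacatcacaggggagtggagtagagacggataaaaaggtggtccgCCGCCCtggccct
The Asic3 window holds 1 Runx core and the window at the second P2rx3 start holds 1 GC box, read on the opposite strand. The window at the first P2rx3 start holds none of the 4 motifs. A match describes these letters only and is not evidence of a bound site.

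Across the 8 groups, the order of levels showed which groups stood apart. P2rx3 was highest in sham at 50 days (1542 ± 186, SD, n = 2), followed by sham at 14 days (1315) and 21 days (1169), Seltzer at 21 and 14 days (1127 and 1039), CCI at 21 and 14 days (959 and 889), and Seltzer at 50 days (433). The 3 sham groups thus had the 3 highest means, but each group's range overlapped the next down to CCI at 14 days, and only Seltzer at 50 days lay apart from its neighbour. Asic3 was also highest in sham at 50 days (658 ± 58.0, SD, n = 2), apart from the next group, CCI at 14 days (466). The remaining groups overlapped in turn down to CCI at 21 days (348), and Seltzer at 50 days lay apart below them. P2rx2 AF020756_s_at had its highest mean in Seltzer at 50 days (2539), apart from sham at 50 days (950), below which each group overlapped the next. Trpv1 means ran from 148 in Seltzer at 14 days to 275 in sham at 21 days.

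The signal of the P2rx2 probe set AF020756_s_at moved with the background of the arrays, and that of AF020758_at did not pass the same test. Over the 18 arrays other than the 50-day Seltzer ones, log2 intensity of AF020756_s_at and log2 background level had a Pearson r of 0.791 (permutation p = 4e-05, 0.0002 adjusted over 5 relations) and a Spearman rho of 0.740 (permutation p = 0.0008, adjusted 0.004). The permutations ignored the surgery and day groups, so differences between groups enter these and the following p-values. Without CCI 21-day replicate 1 and sham 50-day replicate 1, the arrays farthest from the median background, r was 0.707. For AF020758_at r was -0.378 (permutation p = 0.121, adjusted 0.151, rho = -0.0155, adjusted 0.955) and 0.188 without those arrays. The same r was 0.447 for Trpv1 (permutation p = 0.0621, adjusted 0.104, rho = 0.373, adjusted 0.26) and 0.160 for P2rx3 (permutation p = 0.529, adjusted 0.529, rho = 0.350, adjusted 0.26). For Asic3 r was -0.510 (permutation p = 0.0487, adjusted 0.104, rho = -0.104, adjusted 0.85) and rested on those 2 arrays, being 0.0669 without them. The 2 Seltzer arrays at 50 days, left out of these values, had the highest background and the highest signal of both P2rx2 probe sets, and the part of background in that signal was not tested.

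**Figure D4:**
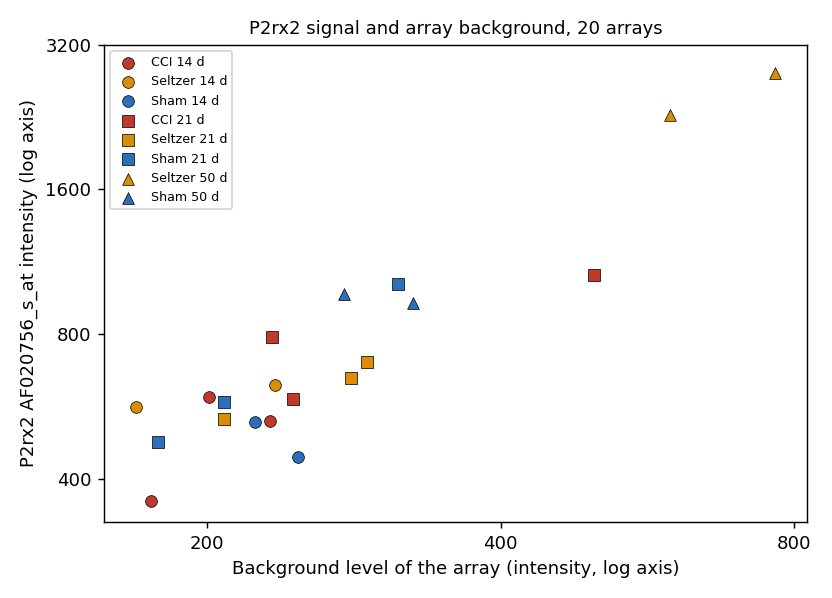
P2rx2 AF020756_s_at intensity (y axis, log scale) against the background level of the array (x axis, log scale) on 20 arrays, coloured by surgery and shaped by day. The arrays with the highest background, 765.3 and 596.5, had the highest P2rx2 intensities, 2792 and 2286, and over the other 18 arrays r was 0.791.

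Genes with the most similar profile were sought over the same 18 arrays among 1400 probe sets above background on at least 9 of them, by Pearson's r of log2 values, as a description. Asic3 was most like Dcakd (0.902), Ndufa3 (0.897) and Yif1a (0.889), P2rx2 AF020756_s_at most like Snrnp70 (0.862), A2m (0.833) and Lrch4 (0.826), and P2rx3 most like Ndufc2 (0.758), Dnm1 (0.722) and Pygb (0.666). These points share arrays, and with them the arrays' background and scaling. For Asic3 they include the value of 90 on CCI 21-day replicate 1, against 309 to 698 on the other arrays used. Its likeness without that array was not computed.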

How the data were processed

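Intensity values were deposited by the authors as 1 table with 1 column per sample and 8799 probe sets. The sources used here do not give their software, scaling or background step. After 59 control probe sets were left out, 8740 were tested. Negative values were raised to 0 and 16 was added to all before the log2, and a mean was fitted for each of 8 groups with limma 3.58.1 in R 4.3.3 (statmod 1.5.0), with 12 residual degrees of freedom. Tests were two-sided with Benjamini-Hochberg adjustment over the 8740 and a threshold of 0.05. For dim probe sets the size of a fitted change depends on that added number. A ratio is that of geometric means. Where a group was above background on no array, the fold is a bound against its arrays' background level, and none is given where both groups were below it or the bound fell under 1. Gene symbols are those of the platform annotation, brought up to date through Entrez IDs. Of the probe sets tested, 7006 had 1 symbol, 308 several and 1426 none. Where a listed gene had several probe sets, the one of highest mean stands for it. Correlations used 100000 permutations in Python 3.11.15 with scipy 1.17.1, and figures matplotlib 3.10.9. No pair of arrays held identical values. The fit was tested on simulated data.

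The members, lists and comparisons were chosen with earlier results of these data known. All member probe sets are described. For other genes the rule names at most 4 called genes per list, those with the largest change (at 50 days for calls made there), and the 3 most like each member above background on at least 9 of 18 arrays. The comparison of the Seltzer effect at 50 days with that at 14 and 21 days, and the relation of 5 probe sets to array background, were chosen after values were seen. Marker lists of satellite glia, Schwann cells and fat gave no call for CCI or Seltzer against sham. Alternatives were other added numbers (1 and 64), a floor at 200, quantile normalization, median centring, a filter on dim probe sets, only the compared groups or no 50-day arrays in the fit, 50 days added to the Seltzer mean, a replicate block, trend and robust settings, array weights, each array left out, and the 21-day arrays of replicate 1 left out together, the last of these chosen after seeing the data. Between 21-day Seltzer and sham arrays of the same replicate number, deviations from group means had correlations of 0.299, 0.226 and 0.110, and those arrays were therefore treated as paired in an alternative fit. In no other comparison with 3 shared numbers were all 3 over 0.1.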

Additional observations from a re-analysis of the deposited data

Results flagged for a closer look

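The effect of the Seltzer injury differed between days for 2 members, by a test of the difference itself that was added after values were seen. The effect at 50 days minus the mean effect at 14 and 21 days was -5.23 for Asic3 (SE 0.64, limma adjusted p = 0.000273) and -1.64 for P2rx3 (SE 0.35, adjusted p = 0.0102) on the log2 scale, where 9.67% of all probe sets passed. The Asic3 difference ran from -9.19 with 1 added before the log2 to -1.55 with values floored at 200 (adjusted p = 0.0299). For P2rx3 the adjusted p was 0.0563 without sham 50-day replicate 2. On the 50-day Seltzer arrays both members lay below background levels of 765.3 and 596.5, and the GAPDH ratios were 8.89 and 5.10. For P2rx2 AF020756_s_at the same difference was 1.29 and did not pass (adjusted p = 0.0598). For the 50-day difference the median over all probe sets was 0.071.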

How the results depend on the processing

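The number of the 13 probe sets past the threshold stayed at 0 for both models at 14 and 21 days under most settings. With values floored at 200 it was 1 for CCI and for Seltzer as means of both days and at 14 days, and for both differences between days, each time Asic1, whose spread within groups the floor removes. For Seltzer at 50 days the number was 4 against 3 with 64 added (P2rx2 U14414_at as well) and with that floor (Asic1 as well). Leaving out single arrays gave 0 to 1 for CCI at 21 days (P2rx2 AF020758_at). It gave 2 to 3 against 3 for Seltzer at 50 days, and 1 to 3 against 2 for the 50-day difference between days, with other members called in some of these fits (Asic1 without sham 50-day replicate 1, P2rx2 AF028603_s_at without Seltzer 50-day replicate 1). With 50 days added to the Seltzer mean, 2 passed, Asic3 (-1.90) and P2rx3 (-0.69). Changes that did not pass turned sign as follows. Floored at 200, Trpv1 was -0.025 for CCI and -0.052 for Seltzer, and with quantile normalization it was -0.0091 at 50 days. With array weights Asic3 was 0.13 for CCI, and without the 21-day arrays of replicate 1 it was 0.17. With 50 days in the mean Asic1 was 0.071 for Seltzer. Leaving out single arrays, the mean CCI change ran from -0.011 to 0.52 for Trpv1, -0.40 to 0.16 for Asic3 and -0.32 to 0.075 for Asic1, and the mean Seltzer change from -0.28 to 0.25 for Trpv1, -1.2e-05 to 0.27 for P2rx2 AF020756_s_at and -0.30 to 0.025 for P2rx3, whose CCI change at 21 days ran from -0.49 to 0.15. The P2rx3 changes turned positive without sham 21-day replicate 2. The causes were not tested. The replicate block left the count at 0 for every comparison at 14 and 21 days and at 3 for Seltzer at 50 days, and gave 3 against 2 for the 50-day difference, where P2rx2 AF020756_s_at then passed (1.29, adjusted p = 0.0277). That probe set passed the 50-day difference in 5 of 24 alternatives. The others were 64 added (1.25, adjusted p = 0.043), quantile normalization (1.38, adjusted p = 0.0332), and sham 21-day replicate 1 or 3 left out. The pairing at 21 days, fitted with a block on those 6 arrays alone, gave 0. Calls for Asic3 and P2rx3 at 50 days held in all 14 alternatives, with the Asic3 change between -9.36 (1 added) and -1.71 (floored at 200). That floor lies below the background levels of the 50-day Seltzer arrays (765.3 and 596.5). The part of that background in the calls was not tested by these alternatives. Centring each array on its median gave -2.13 for P2rx3 and 1.06 for P2rx2 AF020756_s_at there. Calls over all probe sets varied more. They were 114 to 518 against 200 for the CCI mean, 142 to 784 against 243 for CCI at 14 days, 13 to 136 against 81 at 21 days, 15 to 383 against 26 for the Seltzer mean, 0 to 66 against 18 for Seltzer at 14 days, 0 to 56 against 33 at 21 days, 660 to 1798 against 1391 at 50 days, 43 to 309 against 81 between the models, 91 to 344 against 157 and 1 to 51 against 13 for the differences between 21 and 14 days (CCI and then Seltzer), and 485 to 1344 against 845 for the 50-day difference.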
